A study of Mus musculus with 10 samples.

Results

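Chemokines are small secreted proteins that direct the migration of leukocytes, and their receptors are G protein-coupled receptors on the cells that respond. The genes described here are the rows of the deposited gene table that carry the protein-coding type and a symbol of the Ccl, Cxcl, Cx3cl, Xcl, Ccr, Cxcr, Cx3cr, Xcr or Ackr families. By this rule 67 of 54532 rows were members, 44 of them ligands and 23 receptors. Members were chosen by name and not by their values. A further 3 rows of these families, Cxcl11 and a pair of Ccl19 rows, were left out because the table types them as pseudogenes.

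The 10 samples are whole lungs of wild-type C57BL/6J mice, 1 library per sample, collected at P30 (postnatal day 30). In 5 of them an aortocaval fistula, an opening between the abdominal aorta and the inferior vena cava, was made at P7, which sends more blood through the lung (increased pulmonary flow, IPF). The other 5 had the same laparotomy at P7 without the puncture (sham). The comparison of IPF with sham asks how the lung transcriptome differs after weeks of raised flow, and no other group was analysed here.

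Ligands and receptors are often divided into homeostatic ones, which keep cells at their stations in resting tissue, and inflammatory ones, which are induced and draw in monocytes, neutrophils or lymphocytes. In the lung, resident epithelium and stroma make the homeostatic ligands, while much of the receptor mRNA comes from leukocytes in the tissue and in the blood of its vessels. Atypical receptors bind chemokines without classical signaling and remove them. In RNA from whole lung, a larger number of cells and more RNA per cell cannot be told apart.

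The values are FPKM, fragments scaled by gene length and library size, and the reads behind them could be recovered, with 16250190 to 19026843 reads per IPF library and 15483046 to 17818542 per sham library. Sham replicate 1 stood apart, with a mean Spearman correlation across genes of 0.912 with the other samples, where each of the others had 0.929 to 0.932. The female transcript Xist was called higher in IPF and 4 of 4 Y-linked genes lower, with the samples split exactly by group, although the methods name pups of both sexes, so the operation and sex cannot be told apart. Of 12 clock genes 3 were called higher and 8 lower (Dbp 1.74 to 3.49 FPKM in IPF and 23.2 to 29.3 in sham), and the hour of collection is not given in the sources used here. Without it, the operation and the hour of collection cannot be told apart. Markers of alveolar epithelium were abundant in every library, summing to 13360 to 20938 FPKM over 6 genes.

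Of the 67 members, 52 had a mean of at least 0.1 FPKM over the 10 samples and were tested (32 ligands, 20 receptors). The test was limma on log2(FPKM + 0.1), adjusted by Benjamini-Hochberg over all 20448 genes tested, and genes with an adjusted p under 0.05 count as called. The called members numbered 6, all higher in IPF: the receptors Cx3cr1, Cxcr5 and Ccr2 and the ligands Ccl2, Ccl4 and Cxcl10. Among ligands 3 of 32 were called (9.38%) and among receptors 3 of 20 (15.0%), where 5.85% of all genes tested were called and 3.71% were called higher. None was called lower by limma, where 2.14% of all genes were. An unadjusted p under 0.05 was found for 12 ligands (11 higher, 1 lower) and 10 receptors (9 higher, 1 lower), where 3989 of all 20448 genes tested had one. Without sham replicate 1, 0 ligands and 2 receptors were called by limma, with 8 and 7 at an unadjusted p under 0.05. Without IPF replicate 5, 4 ligands and 7 receptors were called, with 14 and 12 at an unadjusted p under 0.05. Over all genes, 912 were called without sham replicate 1 and 1619 without IPF replicate 5, against 1196 with all libraries. With voom on the recovered reads 2 ligands and 3 receptors were called, all higher. The fold change limit of 1 on the log2 scale, which the study also applied, was passed by Ccl2 and Ccl4, or 2 of 52 members, against 1.14% of all genes.

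Fitted changes lay above 0 for 23 of 32 ligands (71.9%) and 18 of 20 receptors (90.0%), where 50.4% of all genes did. The median log2 fold change was 0.37 for ligands and 0.44 for receptors, and 0.0016 over all genes tested. With a pseudocount of 1 the median was 0.19 for ligands and 0.26 for receptors. Leaving out IPF replicate 3 moved the ligand median to 0.21 and leaving out IPF replicate 5 to 0.56. Ligands spread from -1.38 (Ccl11) to 1.78 (Ccl2), receptors from -0.29 (Ackr2) to 0.97 (Cxcr2). The 5 IPF and 5 sham lungs did not overlap for 4 receptors (Cx3cr1, Cxcr5, Ccr2 and Ccr6) and 1 ligand (Cxcl10), all higher in IPF, where 7.29% of all genes tested did not overlap and 4.52% did so on the higher side. Without IPF replicate 5 the groups did not overlap for 9 receptors and 5 ligands. With fewer lungs a lack of overlap is easier for any gene. The share of all genes in that fit is not given here, so these counts cannot be set against the 7.29%.

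**Figure D1:**
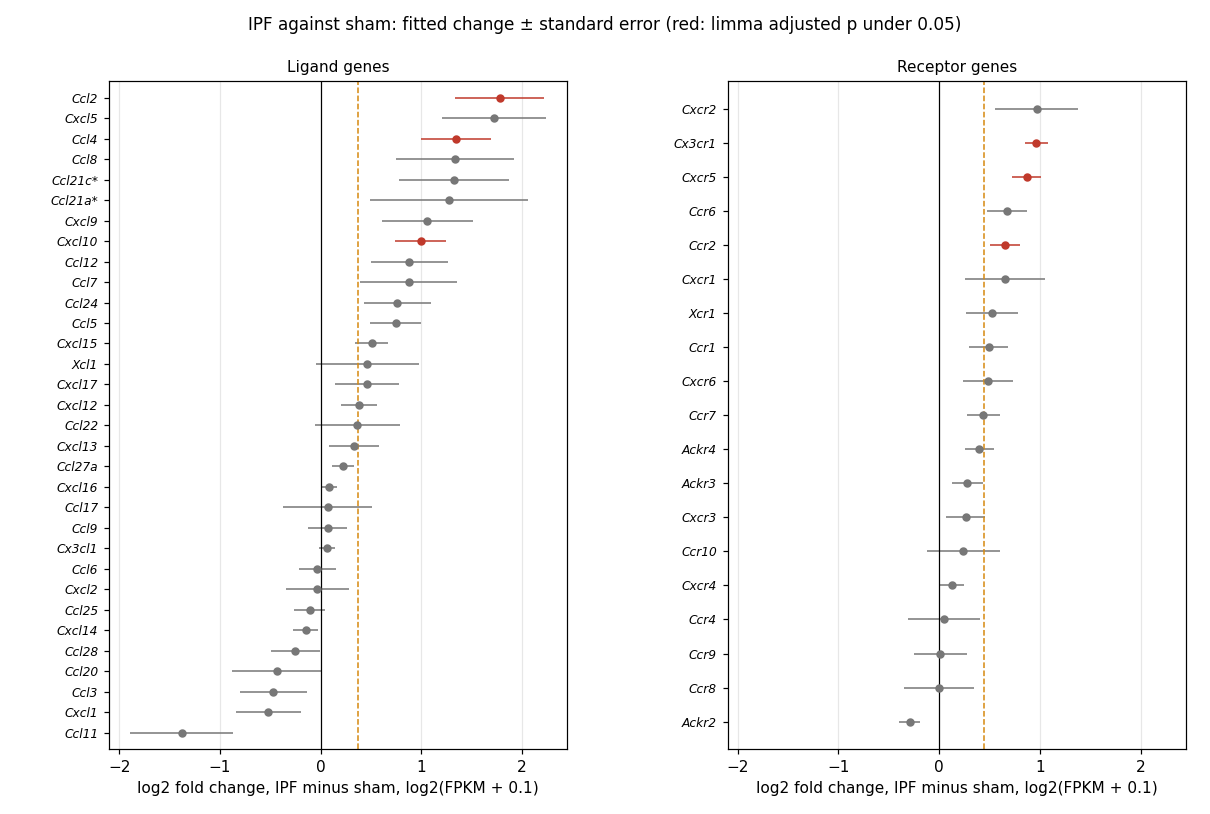
Fitted log2 fold change, IPF minus sham on log2(FPKM + 0.1), with its standard error for the 32 ligand genes and 19 of the 20 receptor genes tested; red marks a limma adjusted p under 0.05, the dashed line the median of all tested ligands or receptors (0.37 and 0.44), and an asterisk a gene copy on an unplaced scaffold. Of the points, 23 ligands and 17 receptors lie right of 0, with the red points all to the right.

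By level, the ligands of the lung were dominated by Cxcl15 (lungkine), a chemokine of lung epithelium, which held 56.3% of the summed ligand FPKM. Cxcl14, a homeostatic ligand of epithelia, held another 20.1%. Cxcl15 was at 529, 642, 736, 640.1 and 411 FPKM in IPF replicates 1 to 5 and at 319, 475, 381, 436 and 448 in sham replicates 1 to 5. IPF replicate 5 lay inside the sham range and the other 4 IPF lungs above it (log2 fold change 0.51, SE 0.16, adjusted p = 0.105 by limma). Cxcl15 had a fitted change of 0.63 on the log2 scale without IPF replicate 5 (adjusted p = 0.0212 by limma, and up to 0.217 when another library was left out). The groups overlapped for Cxcl14, at 137 to 205 FPKM in IPF and 149 to 211 in sham (log2 fold change -0.14, SE 0.12, adjusted p = 0.575 by limma; -0.068 without IPF replicate 5 and -0.23 without sham replicate 1).

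Ccl6, a macrophage ligand of Ccr1, was the next most abundant ligand at 61.2 ± 13.7 FPKM in IPF and 62.5 ± 12.8 in sham (SD, n = 5 each; log2 fold change -0.03, SE 0.18, adjusted p = 0.952 by limma). Summed over all 44 ligand rows, the level was 717 to 1225 FPKM in IPF and 617 to 858 in sham, and without Cxcl15 and Cxcl14 it was 169 to 283 and 149 to 224. The 23 receptor rows summed to 107 to 122 FPKM in IPF and 87.0 to 107.8 in sham. For the sums over all ligands and over all receptors, the lowest IPF lung lay within the sham range and the other 4 above it.

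**Figure D2:**
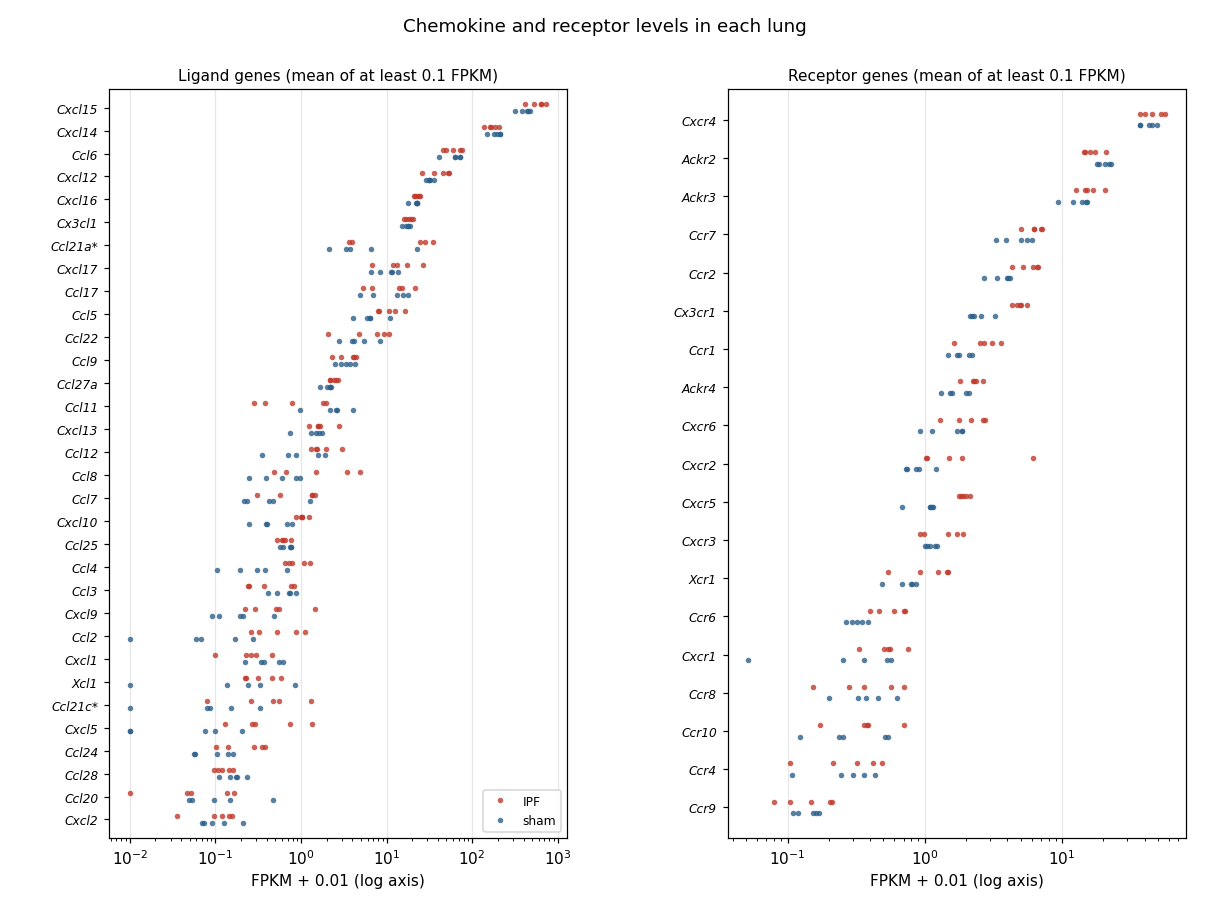
FPKM (log axis, 0.01 added) of the tested members (32 ligands, 19 receptors) in each of the 5 IPF (red) and 5 sham (blue) lungs, ordered by mean level, with an asterisk on copies from unplaced scaffolds. Cxcl15 and Cxcl14 lie above 100 FPKM in every lung, and the inflammatory ligands Ccl2, Cxcl5 and Ccl20 reach 0 in 1 or more lungs.

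The ligands of CCR2, the receptor of inflammatory monocytes, all had positive changes: 4 of 4 were above 0 with a median of 1.11, and 1 of 4, Ccl2, was called. Ccl2 (ENSMUSG00000035385; chromosome 11, 82035571 to 82037453 of GRCm38), the main attractant of these monocytes, was at 0.516, 0.316, 1.12, 0.868 and 0.248 FPKM in the IPF lungs and 0.160, 0.0490, 0, 0.264 and 0.0576 in the sham lungs. The reads behind these values were 10, 6, 24, 18 and 5 in IPF and 3, 1, 0, 5 and 1 in sham. The highest sham lung, replicate 4, lay just above the lowest IPF lung, replicate 5, and the other 4 IPF lungs were above all sham lungs. The mean was 0.613 ± 0.370 against 0.106 ± 0.106 FPKM (SD, n = 5 each; log2 fold change 1.78, SE 0.44, adjusted p = 0.0371 by limma; two-sided exact permutation p = 0.0159). The call was not firm: leaving out 1 library kept it only without IPF replicate 5 or sham replicate 4, and the limma adjusted p reached 0.0999 without IPF replicate 4. It was also lost in 5 of 11 settings, among them a pseudocount of 1 or 0.01.

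Ccl7, Ccl8 and Ccl12, which act on the same receptor, did not reach the threshold. Ccl12 was at 1.31, 3.02, 1.97, 1.53 and 1.47 FPKM in IPF and 0.339, 1.56, 0.696, 1.90 and 0.855 in sham (log2 fold change 0.88, SE 0.38, adjusted p = 0.232 by limma; 0.58 without sham replicate 1). Ccl8 spread most, at 1.49, 0.470, 4.86, 3.44 and 0.664 FPKM in IPF and 0.594, 0.873, 0.975, 0.235 and 0.385 in sham (log2 fold change 1.34, SE 0.59, adjusted p = 0.235 by limma). IPF replicates 1, 3 and 4 were above every sham lung for Ccl8, and replicates 2 and 5 lay within the sham range. Ccl7 was above every sham lung in 3 of 5 IPF lungs (log2 fold change 0.87, SE 0.48, adjusted p = 0.356 by limma). Summed over these 4 ligands, the level was 2.95 to 9.27 FPKM in IPF and 1.32 to 3.67 in sham.

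Ccl11 (eotaxin), the eosinophil attractant, lies between Ccl7 and Ccl12 in the same gene cluster (chromosome 11, 82035571 to 82116799) and had the opposite sign. It was at 0.271, 0.776, 1.81, 1.98 and 0.366 FPKM in the IPF lungs and 2.19, 2.63, 2.53, 4.00 and 0.970 in the sham lungs (log2 fold change -1.38, SE 0.51, adjusted p = 0.157 by limma), and is named here after its values were seen. With the replicate number as a block Ccl11 was called lower (adjusted p = 0.0447 by limma), and in no other setting (up to 0.245). IPF replicates 1, 2 and 5 were below all sham lungs, and replicates 3 and 4 lay within the sham range. Ccl24, another eotaxin, was at 0.0927 to 0.368 FPKM in IPF and 0.0464 to 0.152 in sham (log2 fold change 0.76, SE 0.33, adjusted p = 0.232 by limma). Ccl24 too is named after its values were seen. The fitted values of the 5 neighbours in this cluster thus had both signs.

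**Figure D3:**
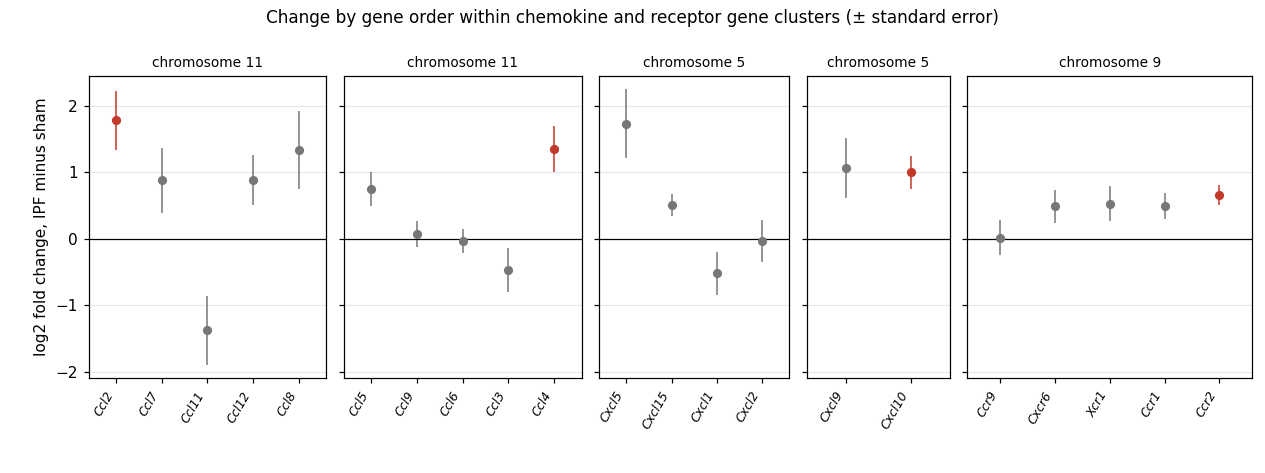
Fitted log2 fold change ± standard error of the tested members of 5 gene clusters in their order along the chromosome, IPF minus sham, with red for a limma adjusted p under 0.05. The chromosome 11 cluster from Ccl2 to Ccl8 holds 4 positive values and Ccl11 at -1.38, while the 5 receptors shown from chromosome 9 lie at or above 0.01.

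Of Ccl3, Ccl4, Ccl5, Ccl6 and Ccl9, CC ligands which attract monocytes, macrophages and effector T cells, 3 were above 0, with a median of 0.070, and Ccl4 was called. Ccl4 (ENSMUSG00000018930; chromosome 11, 83662584 to 83664683) was at 0.712, 0.636, 1.28, 1.08 and 0.771 FPKM in IPF and 0.368, 0.676, 0.0944, 0.182 and 0.298 in sham, from 7 to 16 reads and 1 to 8 reads. Sham replicate 2 lay above IPF replicate 2, and the other 4 IPF lungs lay above all sham lungs. The log2 fold change was 1.35 (SE 0.35, adjusted p = 0.0441 by limma; two-sided exact permutation p = 0.0159). Of the 10 fits that each left out 1 library, only that without sham replicate 2 kept the call, and the limma adjusted p reached 0.112 without IPF replicate 4. The Ccl4 call was also lost in 6 of 11 settings, among them voom on the recovered reads and array weights (adjusted p of up to 0.120 by limma with the replicate block).

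Ccl3, the neighbour and close relative of Ccl4 in the cluster on chromosome 11 (83525778 to 83664683), had a negative fitted value that did not pass the threshold. It was at 0.230, 0.235, 0.760, 0.358 and 0.812 FPKM in IPF and 0.713, 0.728, 0.407, 0.862 and 0.514 in sham (log2 fold change -0.47, SE 0.33, adjusted p = 0.485 by limma; -0.30 without IPF replicate 1 and -0.31 without IPF replicate 2), and is named after its values were seen. Ccl5 (RANTES), made by T and NK cells, was at 8.02, 10.8, 16.3, 12.4 and 8.24 FPKM in IPF and 5.94, 6.33, 10.9, 4.00 and 6.42 in sham. IPF replicates 3 and 4 lay above all sham lungs, and sham replicate 3 within the IPF range (log2 fold change 0.75, SE 0.25, adjusted p = 0.123 by limma). Ccl5 had a fitted change of 0.94 on the log2 scale without sham replicate 3 (adjusted p = 0.0455 by limma, and up to 0.242 when another library was left out).

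Cxcl10 (ENSMUSG00000034855; chromosome 5, 92346638 to 92348889, minus strand) is an interferon-induced ligand of CXCR3, the receptor of effector T and NK cells. It was the 1 ligand whose groups did not overlap, at 0.861, 1.01, 1.01, 1.22 and 0.979 FPKM in the IPF lungs and 0.377, 0.669, 0.387, 0.240 and 0.786 in the sham lungs. IPF values lay close together and the sham values spread, with sham replicates 2 and 5 nearest to the IPF lungs. The log2 fold change was 0.99 (SE 0.25, adjusted p = 0.0402 by limma), and the exact permutation test gave a two-sided p of 0.00794, the smallest that 5 against 5 allows. The call was lost in 8 of the 10 fits that left out 1 library, all but those without sham replicate 2 or 5, with a limma adjusted p of up to 0.105, and in 3 of 11 settings (no filter, the replicate block and no variance trend). Art3 overlaps Cxcl10 and had a log2 fold change of -0.03 (adjusted p = 0.934 by limma).

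Cxcl9, the neighbour of Cxcl10 and a ligand of the same receptor, was at 0.214, 0.497, 0.544, 1.46 and 0.281 FPKM in IPF and 0.201, 0.185, 0.0826, 0.0995 and 0.478 in sham (log2 fold change 1.06, SE 0.45, adjusted p = 0.219 by limma), and is named after its values were seen. IPF replicates 2, 3 and 4 were above all sham lungs. Beside these ligands, 14 of 20 genes induced by interferons, none of them a member, were called higher and 0 lower. The summed level of those 20 genes was 255 to 379 FPKM in IPF and 161 to 206 in sham, and Igtp, an interferon-induced GTPase, had the smallest adjusted p (log2 fold change 0.83, adjusted p = 0.000811 by limma). Their part in the Cxcl10 values was not tested.

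The promoters of the called members are shown from RefSeq (GRCm38.p6), 250 bases before and 50 after the start site, so that the letters in front of genes called higher together can be read side by side. Of 61 member symbols, 46 matched a RefSeq promoter, and of the called members these were Cxcl10, Cx3cr1 and Ccr2. Capitals mark matches, on either strand, to the core of the interferon-stimulated response element (GAAA, any 2 bases, GAAA), the GAS element (TTCNNNGAA), the NF-kB consensus or the E-box CACGTG.
Cxcl10, chr5:92348840-92349139, minus strand: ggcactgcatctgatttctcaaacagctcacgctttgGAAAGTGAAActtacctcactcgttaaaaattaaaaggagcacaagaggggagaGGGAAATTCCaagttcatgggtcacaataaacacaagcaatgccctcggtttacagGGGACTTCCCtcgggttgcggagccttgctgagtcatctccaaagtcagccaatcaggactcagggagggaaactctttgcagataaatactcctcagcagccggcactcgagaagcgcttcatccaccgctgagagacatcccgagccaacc
Cx3cr1, chr9:120068247-120068546, minus strand: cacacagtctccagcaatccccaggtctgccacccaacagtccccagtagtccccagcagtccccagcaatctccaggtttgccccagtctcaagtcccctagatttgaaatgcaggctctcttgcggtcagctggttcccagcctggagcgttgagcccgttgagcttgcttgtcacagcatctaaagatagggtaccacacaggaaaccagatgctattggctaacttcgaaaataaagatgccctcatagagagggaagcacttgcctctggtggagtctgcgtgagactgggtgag
Ccr2, chr9:124101933-124102232, plus strand: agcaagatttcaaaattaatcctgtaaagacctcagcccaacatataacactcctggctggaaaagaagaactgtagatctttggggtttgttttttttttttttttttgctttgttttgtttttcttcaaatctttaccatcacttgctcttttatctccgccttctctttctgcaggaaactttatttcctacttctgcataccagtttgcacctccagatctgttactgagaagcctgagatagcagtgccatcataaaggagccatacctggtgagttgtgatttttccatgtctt
The Cxcl10 window held the interferon element core GAAAGTGAAA at bases -213 to -204 from the start site. It also held NF-kB matches GGGAAATTCC at -159 to -150 and GGGACTTCCC at -103 to -94. No match overlapped another. The Cx3cr1 and Ccr2 windows held no match to these letters. Over the 53 windows of member genes, 5.66% held the interferon element core (Ccl19, Cxcl10 and Cxcl14), where 3.44% of 32851 windows of all genes did. The NF-kB consensus was in 10 of 53 member windows (18.9%, among them Cxcl1, Cxcl2 and Ccl20), against 4.51% of all windows. GAS was in 7.55% of member windows and 8.3% of all, and the E-box in 3.77% and 7.15%.

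Of the ligands of CXCR2, the receptor that brings neutrophils into tissue, 3 were tested and none was called, with values of both signs. Cxcl5, made by lung epithelium, was at 0.284, 0.258, 1.33, 0.736 and 0.121 FPKM in IPF and 0.0651, 0.0898, 0, 0.193 and 0 in sham. It had no read in sham replicates 3 and 5, and 4 of 5 IPF lungs lay above all sham lungs (log2 fold change 1.73, SE 0.52, adjusted p = 0.0794 by limma; two-sided exact permutation p = 0.0159). Cxcl5 passed the threshold with array weights, with protein-coding genes only and without IPF replicate 5 (limma adjusted p = 0.0476, 0.0451 and 0.0338), and not in the other 9 settings or the other 9 fits with 1 library left out (up to 0.182). Cxcl1 was lower in fitted value, at 0.0904 to 0.448 FPKM in IPF and 0.210 to 0.608 in sham (log2 fold change -0.52, SE 0.32, adjusted p = 0.414 by limma; -0.31 without IPF replicate 5), and is named after its values were seen. Cxcl2 lay just above the limit on low values, with 1 to 5 reads per IPF lung and 2 to 7 per sham lung (log2 fold change -0.03, adjusted p = 0.972 by limma). Cxcl3, just below that limit, had 9, 6, 6, 11 and 2 reads in IPF and 3, 3, 3, 2 and 3 in sham and was not tested.

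The homeostatic ligands tested were 12 rows with a median log2 fold change of 0.28, 9 of them above 0, and 0 were called by limma, where 2 had an unadjusted p under 0.05. Cxcl12, the stromal ligand of CXCR4, was at 52.6, 46.2, 36.0, 53.3 and 25.8 FPKM in IPF and 31.0, 32.4, 31.3, 35.7 and 28.7 in sham. IPF replicate 5 lay below all sham lungs and the other 4 IPF lungs above them (log2 fold change 0.38, SE 0.18, adjusted p = 0.267 by limma). Cxcl12 had a fitted change of 0.55 on the log2 scale without IPF replicate 5 (adjusted p = 0.0162 by limma, and up to 0.459 when another library was left out). Cx3cl1 (fractalkine), the endothelial and epithelial ligand of CX3CR1, was at 16.0 to 20.2 FPKM in IPF and 15.2 to 18.8 in sham (log2 fold change 0.07, SE 0.077, adjusted p = 0.697 by limma). Cxcl13, the B cell attractant that binds CXCR5, was at 1.23 to 2.76 and 0.741 to 1.75 FPKM (log2 fold change 0.33, SE 0.24, adjusted p = 0.503 by limma).

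Ccl21, the CCR7 ligand of lymphatic vessels, is spread over near-identical copies, so its reads can have been divided among 6 rows. A copy of Ccl21a on an unplaced scaffold held most of them and fell into separate levels within both groups, at 3.95, 27.9, 35.3, 24.7 and 3.66 FPKM in IPF and 3.32, 3.75, 22.9, 6.57 and 2.12 in sham. High values were found in IPF replicates 2, 3 and 4 and in sham replicate 3 (log2 fold change 1.28, SE 0.78, adjusted p = 0.410 by limma). Over all 6 rows the sum was 4.11 to 35.9 FPKM in IPF and 2.27 to 23.5 in sham. Summed levels of 5 lymphatic markers were 195 to 370 FPKM in IPF and 324 to 369 in sham. Most of that sum was Lyve1 (means of 179 in IPF and 245 in sham) and Pdpn (71.5 and 88.3). Prox1 was at 0.481 and 0.452 FPKM and Reln at 0.366 and 0.349. The part of these markers in the Ccl21a values was not tested. Ccl22, a ligand of CCR4 from dendritic cells, was at 4.80, 7.66, 9.35, 10.6 and 2.04 FPKM in IPF and 3.97, 5.40, 8.36, 4.21 and 2.76 in sham (log2 fold change 0.36, SE 0.42, adjusted p = 0.688 by limma; 0.16 without IPF replicate 4 and 0.74 without IPF replicate 5). Ccl21a and Ccl22 are named after their values were seen.

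Among receptors, Cx3cr1 (ENSMUSG00000052336; chromosome 9, 119901616 to 120069879, minus strand) had the smallest adjusted p. It encodes the fractalkine receptor of patrolling monocytes, some macrophages and NK cells. Cx3cr1 was at 4.68, 5.51, 5.06, 4.91 and 4.33 FPKM in the IPF lungs and 2.20, 2.57, 2.27, 2.13 and 3.23 in the sham lungs. Every IPF lung was above every sham lung, from 345 to 431 reads against 160 to 222. The mean was 4.90 ± 0.440 against 2.48 ± 0.453 FPKM (SD, n = 5 each; log2 fold change 0.97, SE 0.12, adjusted p = 0.00118 by limma; two-sided exact permutation p = 0.00794). The call held in all 12 settings tried and in all 10 fits that left out 1 library. Of the genes overlapping Cx3cr1, Csrnp1 fell (log2 fold change -0.92, adjusted p = 0.0106 by limma), and Wdr48, Gorasp1 and Ttc21a were not called.

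Cxcr5 (ENSMUSG00000047880; chromosome 9, 44511787 to 44561877, minus strand), the receptor with which B cells and follicular helper T cells find follicles, was at 1.97, 1.82, 1.76, 2.12 and 1.88 FPKM in IPF and 1.11, 1.09, 1.14, 0.667 and 1.08 in sham. The groups did not overlap, and sham replicate 4 lay below the other sham lungs. The mean was 1.91 ± 0.142 against 1.02 ± 0.197 FPKM (SD, n = 5 each; log2 fold change 0.87, SE 0.15, adjusted p = 0.00612 by limma; two-sided exact permutation p = 0.00794). Like that of Cx3cr1, the call held in all 12 settings and all 10 fits with 1 library left out. Bcl9l overlaps Cxcr5, and its log2 fold change was 0.08 (adjusted p = 0.794 by limma).

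Ccr2 (ENSMUSG00000049103; chromosome 9, 124101950 to 124113557, plus strand), the receptor of inflammatory monocytes, was at 5.21, 6.62, 6.15, 6.66 and 4.33 FPKM in IPF and 2.70, 3.98, 4.02, 3.33 and 4.16 in sham. The lowest IPF lung, replicate 5, was just above the highest sham lung, replicate 5. The mean was 5.80 ± 1.01 against 3.64 ± 0.613 FPKM (SD, n = 5 each; log2 fold change 0.66, SE 0.15, adjusted p = 0.0244 by limma; two-sided exact permutation p = 0.00794). All 12 settings kept the call, and 5 of the 10 fits with 1 library left out lost it (without IPF replicate 2, 3 or 4 or sham replicate 1 or 4), with a limma adjusted p of up to 0.0694. Its neighbours Ccr9, Cxcr6, Xcr1 and Ccr1 on chromosome 9 also had positive values, from 0.01 to 0.53, and none of these was called.

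Ccr6, the CCL20 receptor of B cells and some T cells and dendritic cells, was at 0.456, 0.698, 0.707, 0.591 and 0.390 FPKM in IPF and 0.340, 0.312, 0.376, 0.285 and 0.254 in sham. All IPF lungs were above all sham lungs by a narrow gap, from 16 to 31 reads against 9 to 14 (log2 fold change 0.67, SE 0.20, adjusted p = 0.0761 by limma; two-sided exact permutation p = 0.00794). The permutation p is unadjusted and only restates the lack of overlap, which 7.29% of all genes tested shared. Ccr6 passed the threshold in 4 of 11 settings (array weights, no variance trend, protein-coding genes only and quantile normalization, limma adjusted p of 0.0373 to 0.0451) and without IPF replicate 5 (0.0346, and up to 0.171 when another library was left out). Its ligand Ccl20 had at most 4 reads in an IPF lung and 11 in a sham lung (log2 fold change -0.43, adjusted p = 0.647 by limma; -0.091 without sham replicate 4, which held the 11 reads). Ccr7, the homing receptor of naive T cells and mature dendritic cells, was at 7.04, 6.28, 6.26, 7.19 and 5.03 FPKM in IPF and 3.90, 6.03, 5.51, 3.28 and 5.04 in sham (log2 fold change 0.44, SE 0.16, adjusted p = 0.158 by limma), and is named after its values were seen. For Ccr7, 4 of 5 IPF lungs were above all sham lungs.

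**Figure D4:**
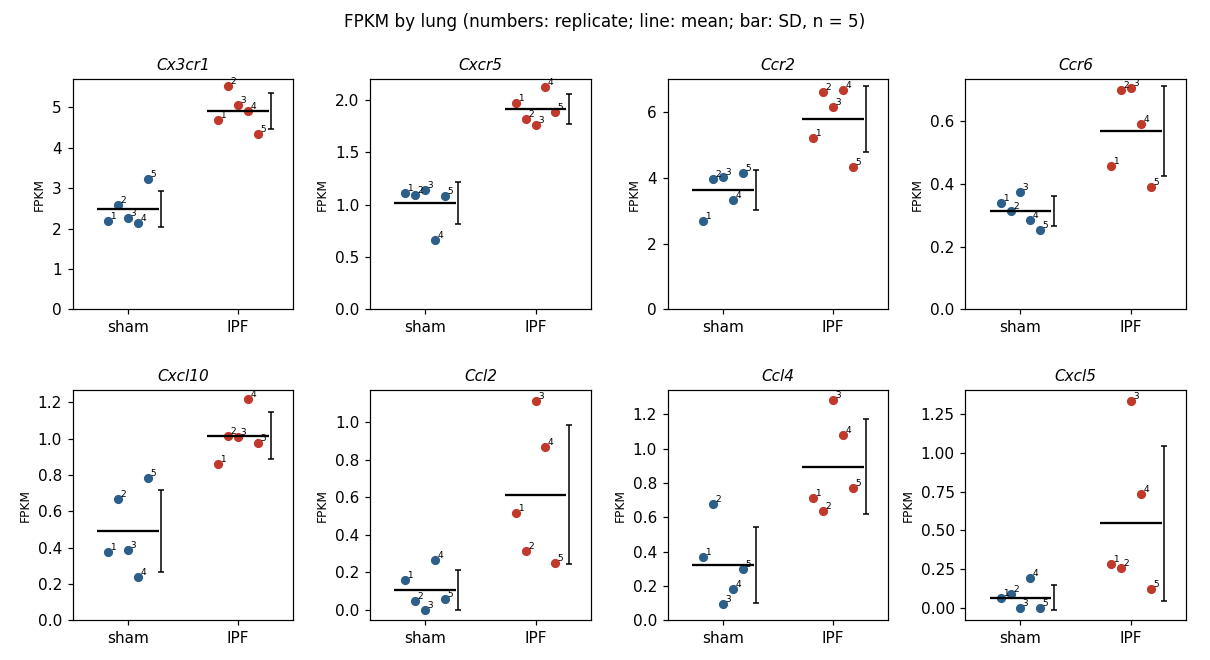
FPKM in each lung, numbered by replicate, with the group mean (line) and SD (bar, n = 5), for the 6 called members and for Ccr6 and Cxcl5. Cx3cr1, Cxcr5, Ccr2, Ccr6 and Cxcl10 show no overlap of sham and IPF, while Ccl2, Ccl4 and Cxcl5 overlap in 1 IPF lung each.

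The receptor with the largest positive fold change, Cxcr2, which marks neutrophils, was not called. It was at 1.85, 1.02, 1.49, 1.01 and 6.14 FPKM in IPF and 0.717, 0.896, 0.858, 0.729 and 1.20 in sham, so that IPF replicate 5 was far above the other lungs (log2 fold change 0.97, SE 0.41, adjusted p = 0.219 by limma), and it is named after its values were seen. Summed over 9 neutrophil markers, IPF replicate 5 also had the highest level, 299.6 FPKM, where the other IPF lungs were at 56.0 to 86.4 and the sham lungs at 16.3 to 88.1. None of the 9 markers was called by limma or voom, with 4 at an unadjusted p under 0.05, and their part in the Cxcr2 values was not tested. Cxcr2 had a fitted change of 0.54 on the log2 scale without IPF replicate 5 (adjusted p = 0.179 by limma, and up to 0.355 when another library was left out).

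Cxcr3, the CXCL9 and CXCL10 receptor and the only named member on chromosome X, was at 0.914 to 1.90 FPKM in IPF and 0.999 to 1.23 in sham (log2 fold change 0.26, SE 0.20, adjusted p = 0.511 by limma). Xcr1, the receptor of cross-presenting dendritic cells, was above all sham lungs in 4 of 5 IPF lungs, and IPF replicate 5 was at 0.533 FPKM and the other IPF lungs at 0.910 to 1.45 (log2 fold change 0.53, SE 0.26, adjusted p = 0.289 by limma). Xcr1 passed the threshold without IPF replicate 5 (log2 fold change 0.74, adjusted p = 0.0465 by limma, and up to 0.489 when another library was left out). Ccr1, which monocytes and neutrophils carry, was at 1.62 to 3.59 FPKM in IPF and 1.48 to 2.18 in sham (log2 fold change 0.49, SE 0.19, adjusted p = 0.175 by limma). Ccr1 had a fitted change of 0.66 on the log2 scale without IPF replicate 1 (adjusted p = 0.0361 by limma, and up to 0.320 when another library was left out).

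The most abundant receptor was Cxcr4, which holds leukocytes and progenitors near CXCL12, at 46.4 ± 8.10 FPKM in IPF and 42.3 ± 5.29 in sham (SD, n = 5 each; log2 fold change 0.13, SE 0.12, adjusted p = 0.624 by limma; 0.053 without IPF replicate 5 and 0.20 without IPF replicate 4). Of the atypical receptors, Ackr2, which clears inflammatory CC chemokines, was 1 of the 2 tested receptors with a negative value. It was at 16.1, 14.6, 14.5, 17.3 and 21.0 FPKM in IPF and 21.8, 17.9, 22.9, 18.8 and 20.5 in sham, with IPF replicate 5 in the sham range and the other 4 below it (log2 fold change -0.29, SE 0.11, adjusted p = 0.149 by limma). Ackr2 had a fitted change of -0.38 on the log2 scale without IPF replicate 5 (adjusted p = 0.0241 by limma, and up to 0.295 when another library was left out). Ackr3, which removes CXCL12, was at 12.6 to 20.5 and 9.30 to 15.3 FPKM (log2 fold change 0.28, SE 0.15, adjusted p = 0.355 by limma; 0.18 without IPF replicate 3 and 0.16 without sham replicate 1). Ackr4, which removes CCL19 and CCL21, was at 1.80 to 2.63 FPKM in IPF and 1.31 to 2.10 in sham (log2 fold change 0.40, SE 0.15, adjusted p = 0.149 by limma), and is named after its values were seen.

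Set side by side, called receptors and their ligands did not pass together except in 1 pair. Ccr2 and Ccl2 were both called, and of the 10 fits with 1 library left out both were called only in that without IPF replicate 5. Cx3cr1 had a log2 fold change of 0.97 and Cx3cl1 one of 0.07, from many more reads (11916 for Cx3cl1 over the 10 lungs, 2869 for Cx3cr1). Cxcr5 stood at 0.87 and Cxcl13 at 0.33, and Cxcl10 at 0.99 and Cxcr3 at 0.26. With 1 library left out Cx3cl1 ranged from 0.020 to 0.11, Cxcl13 from 0.14 (without sham replicate 5) to 0.44 (without IPF replicate 1), and Cxcr3 from 0.14 (without IPF replicate 4) to 0.39 (without IPF replicate 5). The differences between the changes of partners were not tested.

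Markers of the leukocytes that carry these receptors were also called. Of 6 B cell markers 5 were called higher, with a sum of 33.5 to 50.3 FPKM in IPF and 18.3 to 29.8 in sham. Relative to the mean log2 level of those 6 genes, Cxcr5 was at -1.50 to -0.89 in IPF and -1.46 to -1.09 in sham, a difference of 0.0096. Ccr6 relative to the same genes differed by -0.19. Of 7 monocyte markers 4 were called higher (Ly6c2, Plac8, Treml4 and Ccr2 itself), with sums of 251 to 415 FPKM and 210 to 352. Most of these sums was Chil3, with means of 245 FPKM in IPF and 217 in sham. Relative to the 6 markers other than itself, Ccr2 differed by -0.024, and Cx3cr1 relative to all 7 differed by 0.29. Those 6 markers were split. Plac8, Treml4 and Ly6c2 had log2 fold changes of 1.01 to 1.55, and Csf1r, Chil3 and Nr4a1 had 0.005 to 0.20. Their mean thus describes no single marker. NK cell markers were called higher in 4 of 6 (sum 11.4 to 17.5 FPKM in IPF and 4.00 to 9.12 in sham), and Cx3cr1 relative to them differed by -0.060. These ratios were chosen after the values were seen, with marker lists that had risen along with the receptors, and in each of them the groups overlapped. The part of cell numbers in the receptor values was not tested.

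Markers of T cells, macrophages and dendritic cells were followed in the same way, and no test compared the lists. Beside the unadjusted counts that follow, 3989 of all 20448 genes tested had an unadjusted p under 0.05 by limma. Of 9 T cell markers, all with positive values, 1 was called higher by limma (Cd4) and 0 by voom, with 5 at an unadjusted p under 0.05. Of the rest, 0 of 8 macrophage and 0 of 7 dendritic cell markers were called by limma or by voom, with 4 and 0 at an unadjusted p under 0.05. Sums for T cells were 20.9 to 27.0 FPKM in IPF and 13.5 to 21.1 in sham, for macrophages 161 to 207 and 123 to 189, and for dendritic cells 35.1 to 47.7 and 30.8 to 39.1. Of 6 genes of mast cells, basophils and eosinophils 2 could be tested and 1 was called, with a sum of 2.48 to 7.62 FPKM in IPF and 0.88 to 1.81 in sham. Erythroid genes, a measure of blood in the sample, summed to 292 to 3077 FPKM in IPF and 776 to 3060 in sham, with 0 of 4 called by limma or voom and 0 at an unadjusted p under 0.05. Of 6 blood endothelial markers 1 was called higher, and of 6 fibroblast markers 1. By limma 0 of 5 lymphatic, 0 of 6 alveolar, 0 of 6 airway and 0 of 1 thymus markers were called, with 2, 0, 0 and 1 at an unadjusted p under 0.05 and 2, 1, 0 and 0 called by voom.

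Genes that act with the chemokine system but fall outside the rule were also followed. Of 12 such genes 4 were called, all higher by less than 0.4 on the log2 scale: Cmtm6 (58.4 ± 3.44 against 45.3 ± 2.86 FPKM, SD, n = 5 each; adjusted p = 0.00612 by limma), Ccrl2, Dpp4 and Cmklr1. Ccrl2 is a receptor that binds chemerin and Cmklr1 its signaling receptor, and Dpp4 is a peptidase that trims chemokines. Of 40 genes of signal transduction behind the receptors 3 were called, all higher: the leukocyte GTPase Rac2 (log2 fold change 0.61, adjusted p = 0.00422 by limma), its activator Prex1 (0.49, 0.0103) and the receptor kinase Grk5 (0.36, 0.00873). Of these 40 genes 28 had positive and 12 negative values, and the median was 0.11. In 18 the unadjusted p was under 0.05, as it was in 3989 of all 20448 genes tested. The called share, 3 of 40, was near the 5.85% of all genes.

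The 15 members under 0.1 FPKM were 12 ligands and 3 receptors. Ccl26 and a scaffold copy of Ccl27a had no read in any lung, nor had the Ccl19 row on chromosome 4. By FPKM the highest of the 15 were Ccl27b, with at most 2 reads in a lung, and Cxcl3, with at most 11. The receptors Ackr1, Ccr3 and Ccr1l1 had at most 5, 5 and 1 reads in a lung and were not tested. Near the limit on low values, Ccl20 and Cxcl2 lay just above it and Ccl27b and Cxcl3 just below it.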

How the data were processed

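According to the methods, the authors trimmed reads with Fastp, aligned them to GRCm39 with HISAT2 and quantified genes with StringTie. The deposited values are FPKM, 1 per gene and sample. The submitters' processing notes also list Bowtie 0.12.2 and the builds GRCm38, mm10 and hg38. Positions in the table fit GRCm38 and not GRCm39, with a last gene end on chromosome 1 of 195323493, and whether the pipeline in the methods made the deposited table was not tested. The labels and the methods name different library kits, and strand use in counting is not given in the sources used here. Multiplying FPKM by gene length gave whole multiples of 1 unit in each sample (within 0.01 read), from which the reads were recovered.

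From the deposited FPKM, log2(FPKM + 0.1) was fitted with limma 3.58.1 (R 4.3.3, trended variances, no covariate) for genes with a mean of at least 0.1 FPKM. The recovered reads were tested with voom as an alternative, and DESeq2, the authors' tool, was not run. The pseudocount understates changes of low genes. Exact permutation tests over samples were two-sided. The script was tested on simulated data. Allocation was within litters where feasible, per the methods, but the litter of each lung is not given in the sources used here, so p-values measure only the spread between these samples.

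The gene families and the lists were chosen with earlier results of these data known, and within the families every gene was taken by its name. Named members were those called, the non-overlapping ones with the largest changes, the 3 most abundant ligands and receptors, the partners of called members, those that leaving out 1 sample moved across the threshold, and those next to the 0.1 FPKM limit. A receptor included in the counts is not reported here. Others are marked as named after their values were seen. Alternatives are given in the closing section.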

Additional observations from a re-analysis of the deposited data

Results flagged for a closer look

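The 37 of 52 tested members chosen to be described singly were examined first. On the log2(FPKM + 0.1) scale 2 of these had 1 lung set apart from the other 4 of its group by Dixon's criterion for 5 samples, out of 74 groups of 5 examined, where chance sets apart about 1 in 20. Ccl6 was at 41.3 FPKM in sham replicate 1, and the other sham lungs were at 62.8 to 72.7 FPKM. Cxcr5 was at 0.667 FPKM in sham replicate 4, and the other sham lungs were at 1.08 to 1.14 FPKM. Cxcr5 had a fitted change of 0.74 on the log2 scale without sham replicate 4 (adjusted p = 0.00494 by limma, and up to 0.0224 when another library was left out). On FPKM without the log, Ccl6 was not set apart (gap over range 0.687, with a limit of 0.71) and Cxcr5 was, as were 5 others of the 37 in 1 lung each: Cxcr2 in IPF replicate 5 (6.14 FPKM, the others 1.01 to 1.85), Cxcl9 in IPF replicate 4 (1.46, the others 0.214 to 0.544), and Ccl7 (1.27, the others 0.209 to 0.467) and Ccl20 (0.465, the others 0.0392 to 0.138) in sham replicate 4. The last was the Ccl21a copy on an unplaced scaffold in sham replicate 3 (22.9 FPKM, the others 2.12 to 6.57). Of the 15 tested members not chosen, Cxcl16 had a lung set apart on both scales (1 of 30 groups): sham replicate 1 was at 17.8 FPKM and the other sham lungs at 21.9 to 22.9. The scale without the log and these 15 members were examined after seeing the data.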

How the results depend on the processing

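The 3 called receptors were also called under every alternative to pseudocount, filter, scaling, trend, weights and gene set, and by voom on the recovered reads. The ligand calls were less stable. In place of 3 called ligands there was 1 with a pseudocount of 0.01, 1 with no filter (Ccl21a on chromosome 4, lower, at no more than 2 reads in any lung), 1 with the replicate block (Ccl11, lower, adjusted p = 0.0447 by limma, and up to 0.245 in the other settings), 0 without a variance trend (10 at an unadjusted p under 0.05) and 0 with a minimum mean of 1 FPKM (5 of 17), a filter that Ccl2 and Ccl4 do not pass and neither does Cxcl10. Ccl4 was not called by voom or with array weights, under which the 3 called ligands were Ccl2, Cxcl10 and Cxcl5, and Ccl2 was not called with a pseudocount of 1. For the other changes the cause was not tested. Leaving out each library in turn gave 0 to 4 called ligands (0 without sham replicate 1 or IPF replicate 1, 2, 3 or 4, and 1 without sham replicate 3, 4 or 5) and 2 to 7 called receptors. The 7 were found without IPF replicate 5, which was also the library whose removal raised the count of all genes called most, to 1619 from 1196.

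Ligands whose groups did not overlap numbered 1, and 2 with no filter, 2 with quantile normalization, 0 with a minimum mean of 1 FPKM, and 1 to 5 when a library was left out. For receptors this count was 4, and 3 with a minimum mean of 1 FPKM, 3 with voom on the recovered reads, and 4 to 9 with a library left out. Without IPF replicate 5 and sham replicate 1 together, chosen after seeing the data, it was 5 for ligands and 9 for receptors, with 3 and 4 called. Over all genes 1452 were called in that fit, against 1196 with all libraries. A lack of overlap is easier with fewer lungs. Its share over all genes is not given here for the fits with libraries left out. With a pseudocount of 1 the median change was 0.26 for receptors and 0.19 for ligands. With a pseudocount of 0.1 the ligand median was 0.21 without IPF replicate 3, 0.25 without sham replicate 5 and 0.56 without IPF replicate 5. In the same fit with all libraries, 0 of the called receptors passed the log2 fold change limit of 1. Over all genes, 233 passed both limits, and 74 did with a pseudocount of 1.

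Among the named members signs turned for 2 with values near 0: Ccl6, at -0.18 to 0.067 with 1 or 2 libraries left out (above 0 without IPF replicate 1 or 2 or sham replicate 2 or 5), and Cxcl2, at 0.000383 with quantile normalization, 0.0234 with array weights and -0.12 to 0.12 with 1 library left out (above 0 without IPF replicate 3 or sham replicate 4). Between lungs of the same replicate number, correlations of deviations from the group means were low, from -0.020 to 0.095. Both lungs of replicates 1, 2 and 5, and neither of 3 and 4, had their own number as best match in the other group. Whether the numbers mark pairs is not given in the sources used here. The replicate block gave 1045 calls over all genes and 3 receptors.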
